A study of Mus musculus with 6 samples.

Results

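The 39 genes described here encode parts of the lysosome and of the autophagy machinery, and they were measured in mouse LSKs, the lineage-negative, Sca-1+, c-Kit+ bone marrow fraction that holds hematopoietic stem and progenitor cells. They were chosen by gene name, with no measured value in the rule but with earlier results of these data known. All 39 were found among the 55487 genes of the deposited table, and all 39 passed the filter on low counts that left 15332 genes for testing. RNA sequencing compared LSKs of 3 Tespa1+/+ and 3 Tespa1-/- samples, all from mice that had been irradiated. Per the methods of the study, mice were male and 8 to 10 weeks old, total body irradiation was given at 5 Gy, and RNA was purified at day 13. The Tespa1-/- mice carried the germline allele Tespa1tm1Smoc on a B6.129S background backcrossed to C57BL/6, and the labels call the Tespa1+/+ controls littermates. Whether a sample was 1 mouse or a pool was not stated, so p-values measure the spread between these libraries, which may be technical.

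Lysosomes are acidic organelles in which proteases, glycosidases and lipases break down material that arrives by endocytosis or by autophagy. The vacuolar ATPase (V-ATPase) pumps protons into the lumen, LAMP proteins line the membrane, and transporters such as NPC1 export the products. In autophagy, the ULK1 kinase and a Beclin 1 lipid kinase complex start a double membrane, ATG proteins attach LC3 and GABARAP proteins to its lipids, receptors such as p62 bring in the cargo, and the closed autophagosome fuses with a lysosome. The MiT/TFE transcription factors bind E-box motifs near many lysosomal genes. Autophagy is known to be needed for the upkeep of hematopoietic stem cells.

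The 6 libraries held between 12856630 and 30576981 counts. Levels of 1 gene in different libraries are given as CPM, that is, per TMM-scaled library total, and levels of different genes are compared as FPKM, which also divides by gene length. Tespa1 itself was at 34.5, 32.7 and 36.0 CPM in Tespa1+/+ and at 15.3, 14.3 and 14.2 CPM in Tespa1-/- libraries, and the log2 fold change, written log2 change in brackets from here on, was -1.23 (SE 0.07, adjusted p 7.0e-06 by edgeR), so transcripts of the gene were lower but still counted. The sort markers were present in every library, with Kit at 321.9 to 341 CPM and Ly6a (Sca-1) at 43.4 to 63.8 CPM in Tespa1+/+ and at 165 to 177 and 38.2 to 44.2 CPM in Tespa1-/- libraries. Of 11 LSK and stem cell markers, 9 were lower, and their summed level was 1333 to 1366 CPM in Tespa1+/+ and 754 to 772 CPM in Tespa1-/- libraries. All 12 markers of neutrophil secondary and tertiary granules were higher, with a sum of 41.5 to 43.6 CPM in Tespa1+/+ and 547.5 to 578.5 CPM in Tespa1-/- libraries, as were 5 of 6 primary granule markers, with sums of 10910 to 11640 and 17970 to 18780 CPM, although the sort depletes Gr-1+ and CD11b+ cells. Summed markers of other cell types also lay apart, while their members were called in both directions in most lists. Over all genes tested, 14.0% were called higher and 19.2% lower, by the rule given below. The sum was lower in Tespa1-/- libraries for monocytes and macrophages (1162 to 1278 against 1004 to 1105 CPM, with 1 of 11 tested genes called higher and 2 lower) and for megakaryocytes (72.4 to 80.2 against 61.1 to 63.9, with 1 of 4 called lower). It was higher for T and NK cells (216 to 226 against 333 to 348, with 1 of 4 called higher and 1 lower), for erythroid cells (28.2 to 29.5 against 45.7 to 49.5, with 2 of 5 called higher and 2 lower) and for mast cells, basophils and eosinophils (36.1 to 38.9 against 66.8 to 74.0, with 2 of 6 called higher and 1 lower). For B and plasma cells the sum was higher (188 to 213 against 259 to 269) although 5 of 9 tested genes were called lower and 1 higher, with a median log2 fold change of -0.77. The defining markers C1qa, C1qb and C1qc of macrophages and Cd3e of T cells stayed at or under 0.54 CPM in every library. These marker sums move with every comparison below, and their part in the results was not tested.

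Most of the 39 genes differed by less than 1.5-fold. A gene was called when its adjusted p was below 0.05 and it differed by more than 1.5-fold. By this rule 2 genes were higher in Tespa1-/- LSKs, against 14.0% of all genes tested, and 3 were lower, against 19.2%. The higher genes were Ctsz, a lysosomal carboxypeptidase, and Gabarap, a ubiquitin-like protein of the autophagosome membrane. The lower genes were Map1lc3b (LC3B, a member of the same ubiquitin-like family), Npc1, which exports cholesterol from lysosomes, and Ulk1, the kinase that starts autophagy. In bulk samples, fewer cells of a type and less RNA per cell cannot be told apart.

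Differences under 1.5-fold were frequent and leaned upwards. At an adjusted p under 0.05 without a fold minimum, 19 of the 39 genes were higher, against 31.5% of all genes tested, 9 were lower, against 31.8%, and 11 did not pass. The log2 fold change was above 0 for 27 of the 39, and its median was 0.17 over the 39 genes and -0.00 over all genes tested. The groups lay apart in CPM, with no overlap, for 29 of the 39, against 69.1% of all genes tested. Replicates were close for most members, with a median coefficient of variation of 3.88% over 78 values (39 genes in 2 groups) and a range from 0.355% to 55.8%. The plot of values by library shows these shifts gene by gene.

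**Figure D1:**
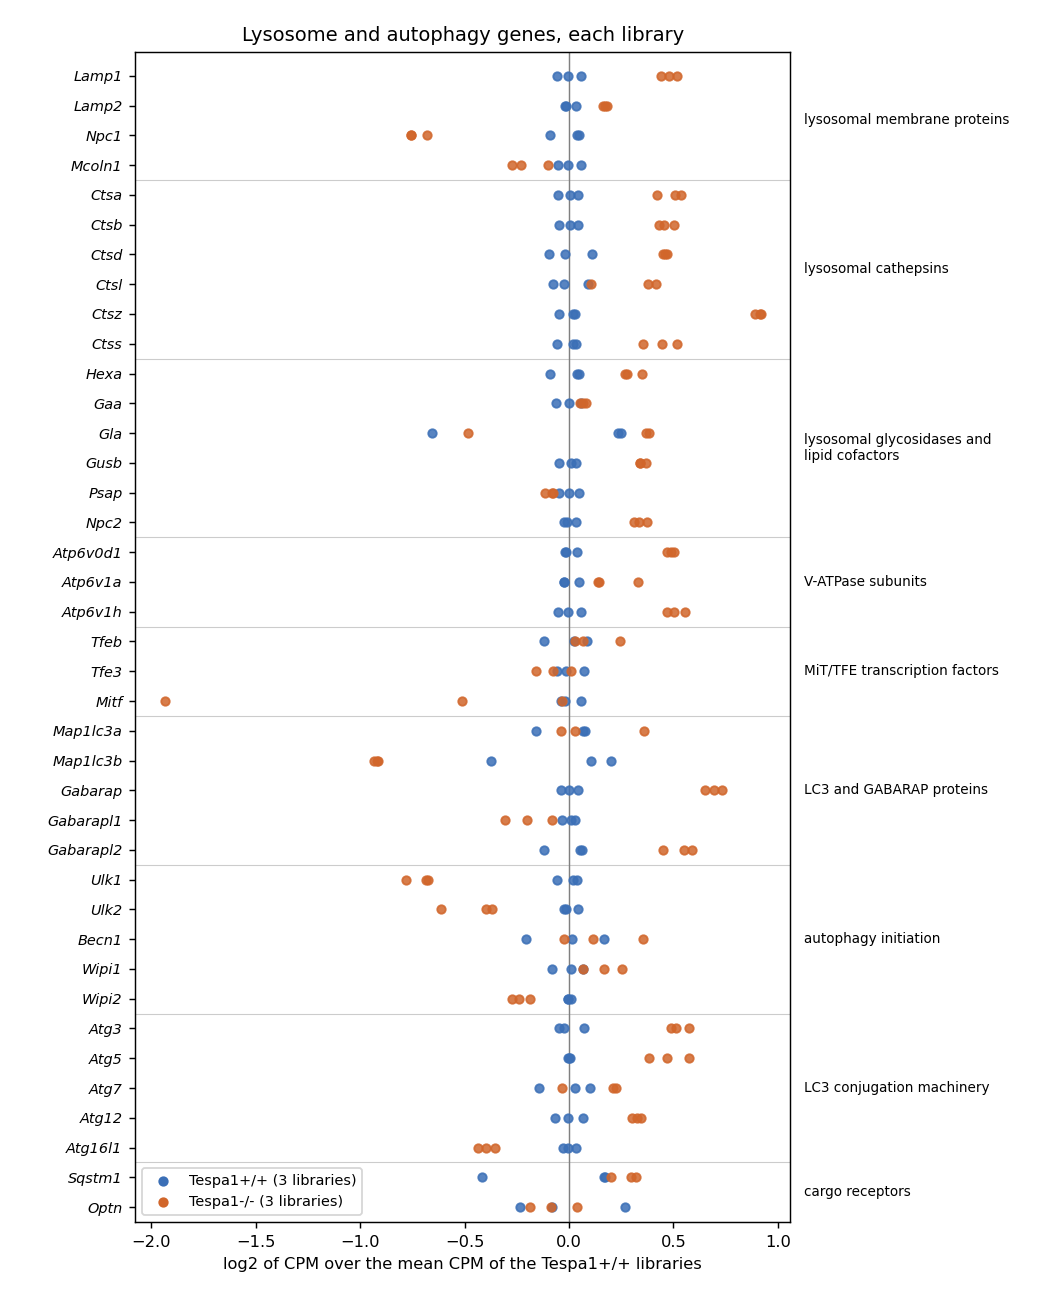
Level of each of the 39 genes in each library, as log2 of CPM over the mean CPM of the Tespa1+/+ libraries, with 1 row per gene grouped by role and 1 point per library. The cathepsins and V-ATPase subunits sit to the right of 0 in all Tespa1-/- libraries, Npc1, Map1lc3b and Ulk1 sit to the left, and Gla and Mitf show libraries of 1 group far apart.

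Gene length moved with the fold changes. Union exon length, the summed length of all exons of a gene in GENCODE M21, had a Spearman rho of -0.50 with log2 fold change over the 39 genes and of -0.47 over 15320 genes tested, which are correlations across genes that share the same 6 libraries. The median log2 fold change of all genes was 0.54 in the shortest decile of genes (median length 425 bases) and -0.56 in the longest (median length 11500 bases). The members were longer than the genes tested, with median lengths of 4783 and 3663 bases. Among the 20 members up to their median length, 12 were higher and 2 lower at an adjusted p under 0.05, with a median log2 fold change of 0.39. Among the 19 longer members, 7 were higher and 7 lower, with a median of 0.12. Over all genes tested, of any length, 31.5% were higher and 31.8% lower at this threshold. Shares among genes of like length were not computed.

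The fold changes were therefore also fitted with a length offset, in which the smooth dependence of each library on union exon length is removed. In that fit rho was 0.12 over the members and -0.02 over all genes, and the median log2 fold change of the members was 0.28, against 0.02 for all genes. Calls then numbered 6 higher, against 8.18% of all genes, and 1 lower, against 15.3%. At an adjusted p under 0.05 alone they numbered 23 higher, against 30.4%, and 6 lower, against 26.5%. Ctsz remained called higher and Map1lc3b remained called lower. Gabarap, Npc1 and Ulk1 dropped under the 1.5-fold limit with log2 fold changes of 0.45, -0.20 and -0.46, while Lamp2, Ctsa, Ctsb, Atp6v1h and Atg12 passed it at 0.61, 0.59, 0.68, 0.96 and 0.66. An offset on the gene length implied by the FPKM values gave 3 higher and 1 lower by the call, since Lamp2, Ctsb and Atg12 stayed under the limit there, at 0.41, 0.51 and 0.49, and Ctsz, Ctsa, Atp6v1h and Map1lc3b were called in both fits. The origin of the length trend was not tested.

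**Figure D2:**
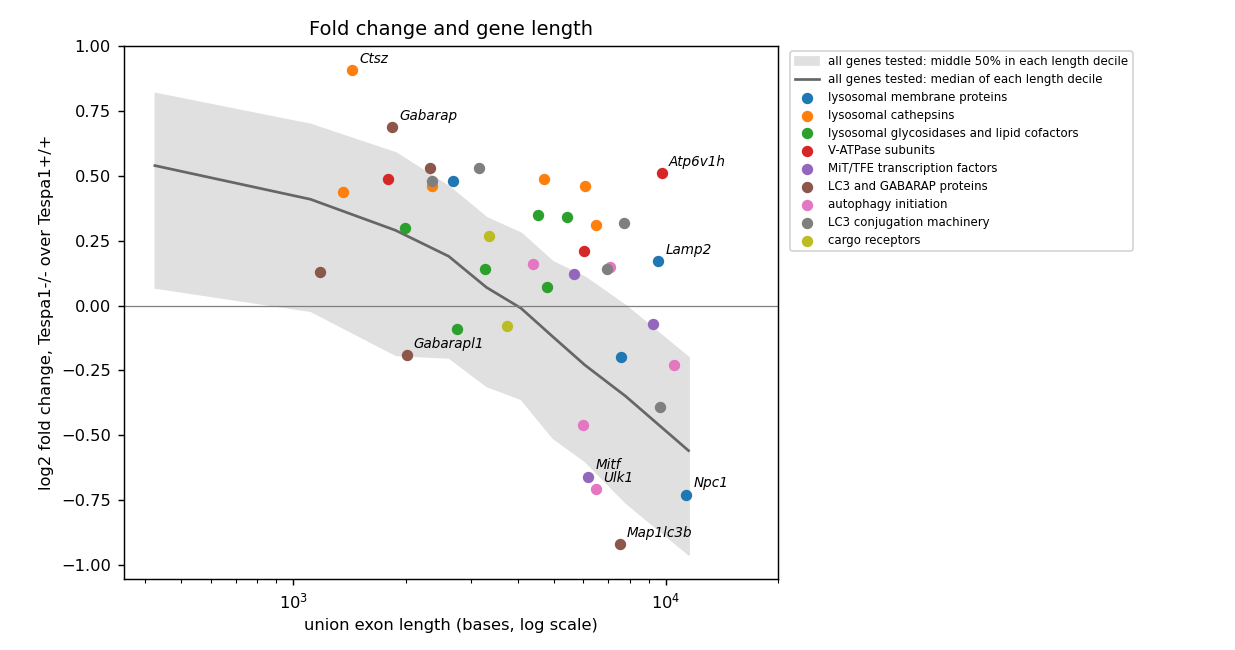
Log2 fold change, Tespa1-/- over Tespa1+/+, against union exon length in bases on a log axis. Points are the 39 genes coloured by role, the line is the median of all genes tested in each decile of length and the grey band holds the middle 50% of genes. Ctsz lies above the band, Gabarap and Map1lc3b lie outside it, and Lamp2 and Atp6v1h lie above the band for their length although their log2 fold changes are 0.17 and 0.51.

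**Figure D3:**
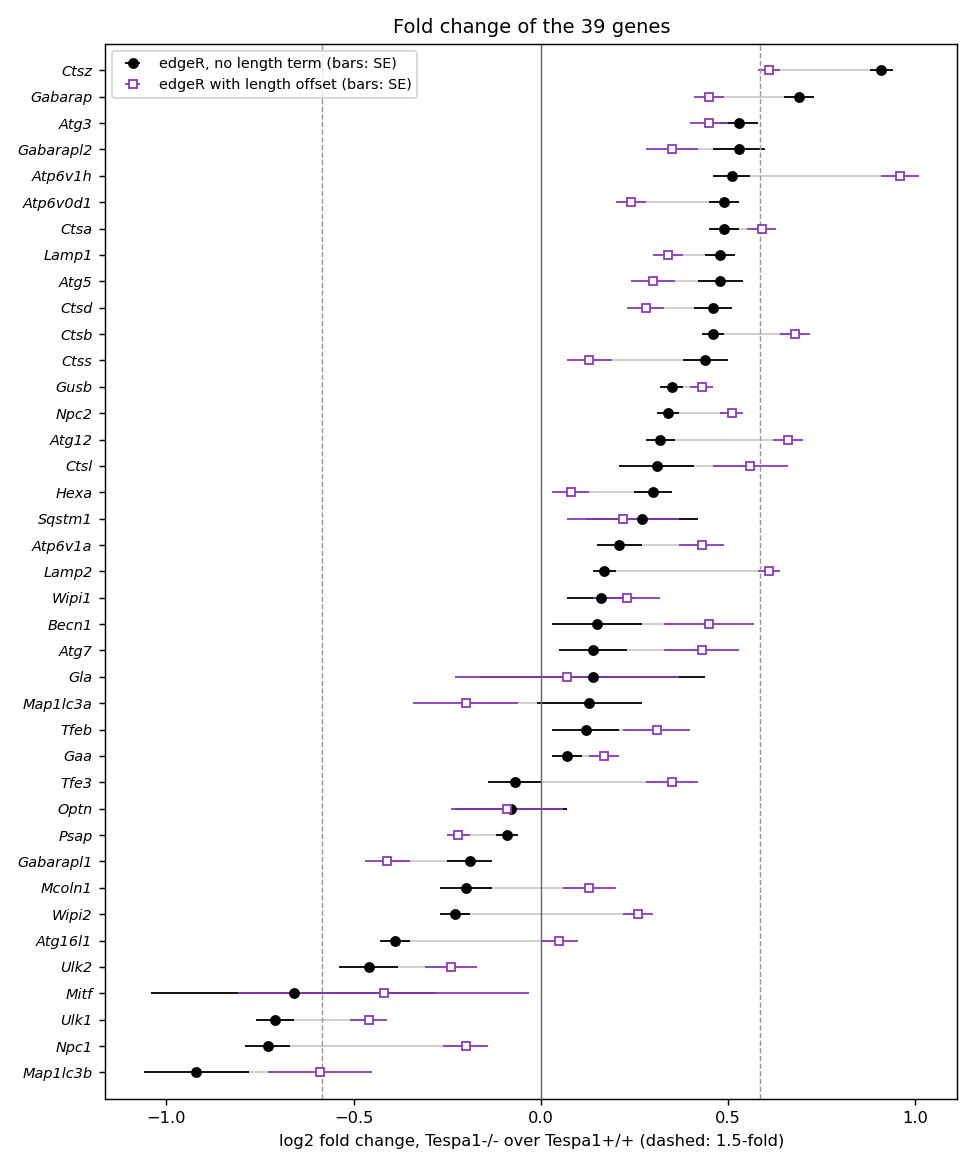
Log2 fold change of each of the 39 genes with its SE, from edgeR without a length term (filled circles) and with the length offset (open squares), ordered by the first. Dashed lines mark 1.5-fold. Ctsz and Map1lc3b lie beyond these lines in both fits, whereas Wipi2, Atg16l1, Tfe3, Mcoln1 and Map1lc3a lie on opposite sides of 0 in the 2 fits.

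The 6 cathepsins among the 39 genes, all lysosomal proteases, were higher together, whereas Ctso, a cathepsin outside the 39, was lower, as given below. All 6 were higher at an adjusted p under 0.05, against 31.5% of all genes tested, with a median log2 fold change of 0.46. None came out below 0 under any of the 18 alternative settings. Ctsz (ENSMUSG00000016256, GRCm38 chromosome 2, 174427493 to 174439039, minus strand) was at 289.2, 304.6 and 303.4 CPM in Tespa1+/+ and at 563.3, 564.8 and 553.8 CPM in Tespa1-/- libraries. These groups lie far apart, and the level was 1.88-fold higher (log2 change 0.91, SE 0.03, adjusted p 1.3e-06 by edgeR). With the length offset the log2 fold change was 0.61.

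The other cathepsins among the members rose by about 1.2 to 1.4-fold. Ctsd, an aspartic protease, was at 217, 229 and 251 CPM in Tespa1+/+ and at 319.5, 322 and 318 CPM in Tespa1-/- libraries (log2 change 0.46, SE 0.05, adjusted p 2.1e-04 by edgeR). Ctsb, a cysteine protease, went from 232 ± 7.32 to 320.4 ± 7.81 CPM (SD, n = 3), also 0.46 on the log2 scale (SE 0.03, adjusted p 2.8e-05 by edgeR). Ctsa, a carboxypeptidase that also stabilises other lysosomal enzymes, went from 111 ± 3.70 to 156 ± 6.35 CPM (SD, n = 3). In each of these the groups did not overlap. Ctss, a cysteine protease of antigen-presenting cells, was at 44.0, 44.4 and 41.6 CPM against 59.0, 55.4 and 61.9 CPM, and its log2 fold change of 0.44 became 0.13 with the length offset (adjusted p 0.0919 by edgeR). Ctsl, a cysteine protease and the lowest of the 6 in FPKM, was at 24.2 to 27.1 and 27.3 to 34.0 CPM, and its edgeR adjusted p of 0.0248 was between 0.055 and 0.076 when Tespa1+/+ replicate 2 or 3 or Tespa1-/- replicate 1 or 2 was left out. Ctsd shares 34.4% of its exon length with the same-strand gene Gm49369, which held 17 to 91 counts in a library.

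By FPKM, Ctsz was the highest of the 6 cathepsins described here and of the 39 genes. Cathepsins outside the 39 genes, such as Ctso, were not ranked. Its FPKM was 215 ± 5.89 in Tespa1+/+ and 375 ± 4.10 in Tespa1-/- LSKs (SD, n = 3), the highest FPKM of the 39 genes in both groups. FPKM rests on the gene lengths of the deposited values, which for some genes differ from union exon length. Per base of union exon length Psap led in Tespa1+/+, at 682 CPM over 2744 bases against 299 CPM over 1441 bases for Ctsz. Ctsz made up 59.7% ± 0.398 of the summed FPKM of the 6 cathepsins in Tespa1+/+ and 67.0% ± 0.224 in Tespa1-/- libraries (SD, n = 3). The summed FPKM was 347 to 367 and 556 to 565, while FPKM summed over all genes was 350333 to 351987 and 432222 to 433536. The shares of Ctsb, Ctsd and Ctss were lower in every Tespa1-/- library than in every Tespa1+/+ library, although their levels were higher.

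Other lysosomal hydrolases and their lipid cofactors moved less. Of 6 genes, 3 were higher and 1 lower at an adjusted p under 0.05, against 31.5% and 31.8% of all genes tested. None reached 1.5-fold, and the median log2 fold change was 0.22. Hexa, a subunit of the hexosaminidase that degrades gangliosides, went from 193 ± 10.4 to 238 ± 7.30 CPM (SD, n = 3, log2 change 0.30, SE 0.05, adjusted p 0.00108 by edgeR), and its log2 fold change was 0.08 with the length offset (adjusted p 0.212 by edgeR). Gusb, a glucuronidase, went from 212 ± 6.25 to 271 ± 3.12 CPM (SD, n = 3), and Npc2, which hands cholesterol to NPC1, went from 252 ± 5.60 to 319 ± 7.06 CPM (SD, n = 3). Their log2 fold changes of 0.35 and 0.34 were 0.43 and 0.51 with the length offset.

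Psap, the precursor of the saposins that present lipids to hydrolases, went the other way by a small amount. It was at 682, 706 and 659.7 CPM in Tespa1+/+ and at 644.5, 647.5 and 631 CPM in Tespa1-/- libraries, a log2 fold change of -0.09 (SE 0.03, adjusted p 0.0336 by edgeR). The groups lay next to each other without overlap, and the adjusted p rose above 0.05 in 5 of the 6 fits that left out 1 library. Gaa, the glycogen-degrading glucosidase, overlapped between groups at 113 to 123 and 123 to 125 CPM (log2 change 0.07, adjusted p 0.194 by edgeR).

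Gla, a galactosidase on chromosome X, varied within both groups by more than the group means differed. It was at 25.7, 48.1 and 47.7 CPM in Tespa1+/+ and at 52.3, 28.9 and 52.8 CPM in Tespa1-/- libraries. Tespa1+/+ replicate 1 and Tespa1-/- replicate 2 were low, and the other libraries of both groups lay together. The log2 fold change was 0.14 (SE 0.30, adjusted p 0.709 by edgeR) and turned to -0.10 without Tespa1+/+ replicate 1.

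The V-ATPase subunits were higher together. Atp6v0d1, which couples the proton channel to the catalytic domain, was at 73.7, 73.5 and 76.5 CPM in Tespa1+/+ and at 104.7, 105.6 and 103 CPM in Tespa1-/- libraries (log2 change 0.49, SE 0.04, adjusted p 2.6e-05 by edgeR). Atp6v1h, a regulatory subunit of the catalytic domain, was at 51.5, 49.8 and 53.7 CPM against 73.3, 71.6 and 75.9 CPM (log2 change 0.51, SE 0.05, adjusted p 7.4e-05 by edgeR). For both, all Tespa1-/- libraries lay above all Tespa1+/+ libraries. Atp6v1a, the catalytic subunit, differed less, from 106 ± 3.00 to 122 ± 9.41 CPM (SD, n = 3, log2 change 0.21, adjusted p 0.0174 by edgeR). The 3 subunits stayed above 0 in all 18 alternative settings, and with the length offset Atp6v1h was the highest of the 39 genes at a log2 fold change of 0.96 (SE 0.05).

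The lysosomal membrane proteins split. Lamp1, the highest of them in FPKM, was at 289.7, 277 and 268 CPM in Tespa1+/+ and at 398, 377.5 and 387 CPM in Tespa1-/- libraries (log2 change 0.48, SE 0.04, adjusted p 3.5e-05 by edgeR). Lamp2, whose product also serves as the receptor of chaperone-mediated autophagy, was at 229, 221 and 220.5 CPM against 253.5, 252 and 249.8 CPM, a log2 fold change of 0.17 (SE 0.03, adjusted p 0.00141 by edgeR). Both were thus higher without overlap, Lamp1 by the larger amount, and this order was reversed with the length offset, with 0.34 for Lamp1 and 0.61 for Lamp2.

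Npc1 and Mcoln1 were lower. Npc1 (ENSMUSG00000024413, GRCm38 chromosome 18, 12189692 to 12236400, minus strand) was at 49.7, 45.2 and 49.4 CPM in Tespa1+/+ and at 28.5, 30.0 and 28.5 CPM in Tespa1-/- libraries, 1.66-fold lower (log2 change -0.73, SE 0.06, adjusted p 4.2e-05 by edgeR). The groups lay well apart. With 11317 bases it is the longest of the 39 genes, and with the length offset its log2 fold change was -0.20 (adjusted p 0.0224 by edgeR). Npc1 and Npc2, whose products act in the same cholesterol export step, thus moved in opposite directions, with Npc2 at 0.34. Mcoln1, the calcium channel of the lysosome, was at 33.5, 32.4 and 34.9 CPM against 27.8, 28.6 and 31.3 CPM. Its log2 fold change of -0.20 (adjusted p 0.0317 by edgeR) became 0.13 with the length offset and lost its significance in 5 of the 6 fits that left out 1 library.

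The transcripts of the ubiquitin-like proteins of the autophagosome changed in composition. Gabarap (ENSMUSG00000018567, GRCm38 chromosome 11, 69991143 to 69994951, plus strand) was at 82.0, 84.5 and 79.9 CPM in Tespa1+/+ and at 133, 136 and 129 CPM in Tespa1-/- libraries, 1.62-fold higher (log2 change 0.69, SE 0.04, adjusted p 8.2e-06 by edgeR). Map1lc3b (ENSMUSG00000031812, GRCm38 chromosome 8, 121590361 to 121598760, plus strand) was at 103, 73.9 and 110 CPM against 50.1, 50.8 and 50.6 CPM, 1.89-fold lower (log2 change -0.92, SE 0.14, adjusted p 9.5e-04 by edgeR). Neither gene overlapped between groups. For Map1lc3b, Tespa1+/+ replicate 2 lay below the other controls, and without it the log2 fold change was -1.07 (adjusted p 3.0e-05 by edgeR).

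The remaining 3 members of this family differed less. Gabarapl2 was at 26.1, 26.3 and 23.2 CPM in Tespa1+/+ and at 34.4, 37.8 and 36.9 CPM in Tespa1-/- libraries (log2 change 0.53, SE 0.07, adjusted p 5.4e-04 by edgeR). Gabarapl1 was at 105, 102 and 106 CPM against 98.6, 90.8 and 84.6 CPM (log2 change -0.19, SE 0.06, adjusted p 0.0236 by edgeR), without overlap, but above an adjusted p of 0.05 in 4 of the 6 fits that left out 1 library. Gabarapl1 shares 28.3% of its exon length with 1700101I11Rik on the opposite strand, which held 10 to 39 counts. Map1lc3a had few counts, at 6.87 to 8.09 and 7.46 to 9.85 CPM, and overlapped between groups (log2 change 0.13, SE 0.14, adjusted p 0.425 by edgeR).

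As a share of the summed FPKM of these 5 genes, Gabarap went from 31.7% ± 1.59 in Tespa1+/+ to 44.9% ± 0.510 in Tespa1-/- libraries (SD, n = 3). Gabarapl1 went from 42.0% ± 0.411 to 32.2% ± 1.83, and Map1lc3b from 11.6% ± 2.11 to 5.38% ± 0.178. The gene with the largest share was thus Gabarapl1 in all 3 Tespa1+/+ libraries and Gabarap in all 3 Tespa1-/- libraries. The summed FPKM of the family was 78.4 to 82.1 in Tespa1+/+ and 82.6 to 87.7 in Tespa1-/- libraries. FPKM summed over all genes was 350333 to 351987 and 432222 to 433536, so these sums are not on one scale between groups. Relative to that total, the family was lower in every Tespa1-/- library than in every Tespa1+/+ library. Gabarap and Gabarapl1 are similar in length, with 1844 and 2013 bases, whereas Map1lc3b has 7517 bases.

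**Figure D4:**
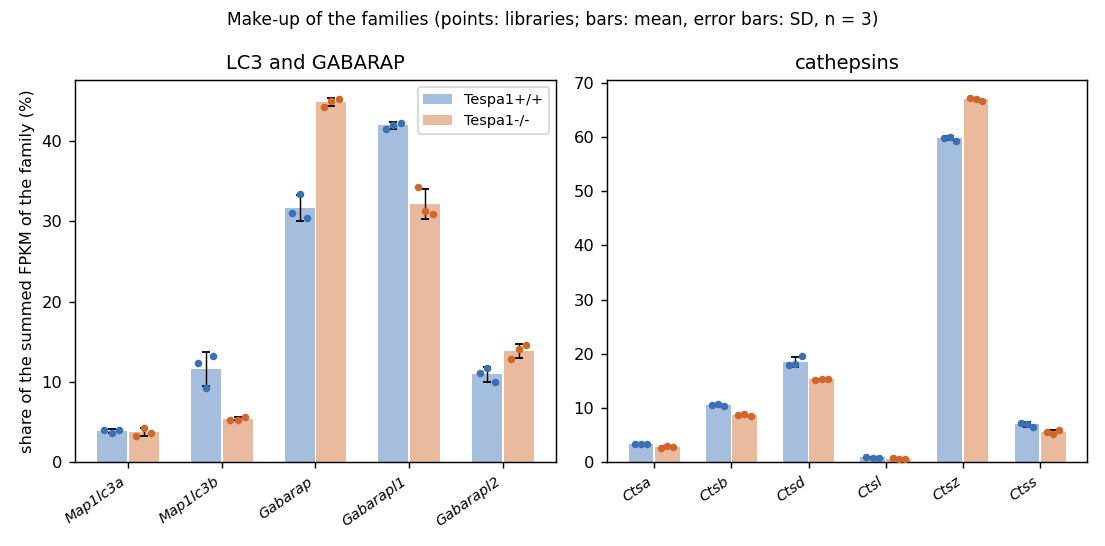
Share of each gene in the summed FPKM of its family, in percent, for the 5 LC3 and GABARAP genes (left) and the 6 cathepsins (right). Points are libraries, bars are means and error bars are SD (n = 3 per group). Gabarap overtakes Gabarapl1 in Tespa1-/- libraries, and Ctsz rises from 59.7% to 67.0% of the summed FPKM of these 6 cathepsins.

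Of the 5 genes that start autophagy, 3 were lower at an adjusted p under 0.05, against 31.8% of all genes tested, and 2 did not pass. Their median log2 fold change was -0.23. In the length offset fit 2 were lower and 2 higher at an adjusted p under 0.05, and the median was 0.23. Ulk1 (ENSMUSG00000029512, GRCm38 chromosome 5, 110784488 to 110810097, minus strand) was at 69.5, 74.4 and 73.4 CPM in Tespa1+/+ and at 42.2, 45.1 and 45.3 CPM in Tespa1-/- libraries, 1.64-fold lower (log2 change -0.71, SE 0.05, adjusted p 2.1e-05 by edgeR). Its paralogue Ulk2 was at 32.4, 32.1 and 33.7 CPM against 24.8, 21.4 and 25.3 CPM (log2 change -0.46, SE 0.08, adjusted p 0.00156 by edgeR). Both kinases were lower in every Tespa1-/- library, and both kept an adjusted p under 0.05 with the length offset, at -0.46 (3.0e-04) and -0.24 (0.0277) by edgeR.

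Wipi2, which reads the lipid signal of the Beclin 1 complex and recruits ATG16L1, was at 111, 113 and 111 CPM in Tespa1+/+ and at 98.3, 94.9 and 92.5 CPM in Tespa1-/- libraries (log2 change -0.23, SE 0.04, adjusted p 0.00116 by edgeR). At 10543 bases it is among the longest members, and its direction depended on the length offset, with 0.26 in that fit (adjusted p 9.0e-04 by edgeR). Becn1, encoding Beclin 1, overlapped between groups at 79.4 to 103 and 90.2 to 117 CPM (log2 change 0.15, SE 0.12, adjusted p 0.299 by edgeR), and was higher with the length offset at 0.45 (adjusted p 0.016 by edgeR). Of its exon length, 43.9% is shared with Cntd1 on the opposite strand, which held 21 to 63 counts. Wipi1 overlapped as well, at 11.9 to 13.2 and 13.2 to 15.0 CPM (adjusted p 0.137 by edgeR).

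The enzymes that attach LC3 and GABARAP proteins to lipid were mostly higher. Atg3, the E2-like enzyme of this reaction, was at 57.0, 52.4 and 53.4 CPM in Tespa1+/+ and at 80.7, 76.2 and 77.4 CPM in Tespa1-/- libraries (log2 change 0.53, SE 0.05, adjusted p 7.6e-05 by edgeR). Atg5 was at 28.7, 28.9 and 28.9 CPM against 39.9, 37.7 and 42.9 CPM (log2 change 0.48, SE 0.06, adjusted p 4.2e-04 by edgeR), and Atg12, to which the ATG5 protein is joined, at 85.1, 77.6 and 81.0 CPM against 103, 102 and 100.1 CPM (log2 change 0.32, SE 0.04, adjusted p 5.3e-04 by edgeR). These 3 genes did not overlap between groups.

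Atg16l1, which completes the complex with ATG5 and ATG12, was lower instead. It was at 60.0, 61.1 and 62.7 CPM in Tespa1+/+ and at 45.3, 47.9 and 46.5 CPM in Tespa1-/- libraries (log2 change -0.39, SE 0.04, adjusted p 2.2e-04 by edgeR). With the length offset its log2 fold change was 0.05 (adjusted p 0.391 by edgeR). Atg7, the E1-like enzyme, overlapped between groups at 35.02 to 41.6 and 37.8 to 45.2 CPM (log2 change 0.14, adjusted p 0.23 by edgeR), and was 0.43 with the length offset (adjusted p 0.00709 by edgeR).

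Neither of the cargo receptors passed the test. Sqstm1 (p62) was at 103, 154 and 154 CPM in Tespa1+/+ and at 171, 168 and 157 CPM in Tespa1-/- libraries (log2 change 0.27, SE 0.15, adjusted p 0.146 by edgeR). All Tespa1-/- libraries lay above all Tespa1+/+ libraries, but Tespa1+/+ replicate 1 was far below the others, and without it the log2 fold change was 0.11 (adjusted p 0.0908 by edgeR). Sqstm1 shares 17.3% of its exon length with Mrnip on the opposite strand, which held 107 to 307 counts. Optn was at 5.67 to 8.04 and 5.86 to 6.86 CPM (log2 change -0.08, adjusted p 0.676 by edgeR), and turned to 0.07 without Tespa1+/+ replicate 1.

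The transcription factors of lysosomal genes, all at or under 1.66 FPKM on average, did not pass the test. Tfeb was at 14.9, 13.5 and 15.5 CPM in Tespa1+/+ and at 15.3, 17.3 and 14.9 CPM in Tespa1-/- libraries (log2 change 0.12, SE 0.09, adjusted p 0.29 by edgeR). Tfe3 was at 28.2, 25.8 and 26.6 CPM against 25.4, 24.04 and 27.0 CPM (log2 change -0.07, SE 0.07, adjusted p 0.384 by edgeR). Both overlapped between groups, and with the length offset they were 0.31 and 0.35 (adjusted p 0.0257 and 0.00354 by edgeR).

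Mitf was the least even of the 39 genes. It was at 10.7, 10.0 and 10.2 CPM in Tespa1+/+ and at 2.70, 7.23 and 10.1 CPM in Tespa1-/- libraries. The controls lay together, whereas the Tespa1-/- libraries spread over a wide range, with replicate 3 at the level of the controls. The log2 fold change was -0.66 (SE 0.38, adjusted p 0.175 by edgeR), and it was -1.07 (adjusted p 0.0427 by edgeR) without Tespa1-/- replicate 3 and -0.25 without Tespa1-/- replicate 1.

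By FPKM, the order of the levels was alike in both groups at its ends. In Tespa1+/+ LSKs the highest FPKM values were those of Ctsz (215 ± 5.89), Psap (177 ± 5.88), Lamp1 (101 ± 4.14), Hexa (100.1 ± 5.41) and Ctsd (66.7 ± 4.86), of which Lamp1 and Hexa differed by less than their SD (n = 3). In Tespa1-/- LSKs the same 5 genes led in the same order, at 375 ± 4.10, 155 ± 2.23, 131 ± 3.24, 115 ± 3.68 and 85.5 ± 0.692 (SD, n = 3). The lowest by FPKM were Mitf, Optn and Tfe3 in both groups, at 1.05 to 1.34 FPKM in Tespa1+/+ and 0.635 to 1.19 FPKM in Tespa1-/- LSKs. These ranks rest on the gene lengths of the deposited FPKM values. Per base of union exon length Tfe3 lay above Tfeb in Tespa1+/+, at 26.8 CPM over 9261 bases against 14.6 CPM over 5669 bases. In between, Gabarapl1 went from rank 9 to rank 12 of 39, Gabarap from 11 to 9, Map1lc3b from 21 to 26 and Atg16l1 from 29 to 33.

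Promoters were examined for CACGTG, the E-box core that MiT/TFE factors bind in many lysosomal promoters. Windows from 250 bases before to 50 bases after a RefSeq gene start (GRCm38.p6) were at hand for 32 of the 39 genes and for 27025 genes in all. CACGTG, which reads the same on both strands, stood in the windows of 12 of the 32 genes (37.5%), of 8.09% of all genes and of 11.9% of the 9989 tested genes with a window. The longer form GTCACGTG, which contains it and was searched on both strands, stood in 8 of the 32 (25%), in 2.55% of all genes and in 4.87% of tested genes. The 12 genes were Lamp1, Mcoln1, Ctsa, Ctsd, Ctsl, Gaa, Gla, Atp6v0d1, Atp6v1a, Atg3, Atg5 and Atg7. A match is a description of letters and not a binding site.

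The 120 bases before the start of 3 genes with at least 2 matches in that stretch and of the 4 called genes with a window are shown for comparison, each read 5′ to 3′ on the strand of its gene, with CACGTG in capitals. They lie at chr8:13159041-13159160 (plus strand) for Lamp1, chr8:3500399-3500518 (plus) for Mcoln1, chr16:45158709-45158828 (plus) for Atg3, chr2:174439040-174439159 (minus) for Ctsz, chr11:69991250-69991369 (plus) for Gabarap, chr8:121590318-121590437 (plus) for Map1lc3b and chr5:110810082-110810201 (minus) for Ulk1. The starts are those of RefSeq, and GENCODE M21 places the start of some of these genes further upstream.
Lamp1: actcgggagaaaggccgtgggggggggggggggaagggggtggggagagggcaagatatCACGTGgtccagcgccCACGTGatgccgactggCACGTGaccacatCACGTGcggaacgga
Mcoln1: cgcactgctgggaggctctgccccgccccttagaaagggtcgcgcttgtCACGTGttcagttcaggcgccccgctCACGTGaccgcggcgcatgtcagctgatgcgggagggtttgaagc
Atg3: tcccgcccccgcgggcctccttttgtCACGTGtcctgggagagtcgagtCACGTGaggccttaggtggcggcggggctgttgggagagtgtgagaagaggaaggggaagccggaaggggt
Ctsz: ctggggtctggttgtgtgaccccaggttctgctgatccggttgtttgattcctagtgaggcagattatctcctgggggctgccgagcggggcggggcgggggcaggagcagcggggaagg
Gabarap: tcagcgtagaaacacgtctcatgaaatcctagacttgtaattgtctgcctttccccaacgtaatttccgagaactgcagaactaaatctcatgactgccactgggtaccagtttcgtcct
Map1lc3b: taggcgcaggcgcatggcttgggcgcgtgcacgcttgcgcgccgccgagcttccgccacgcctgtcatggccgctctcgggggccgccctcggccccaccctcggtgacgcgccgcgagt
Ulk1: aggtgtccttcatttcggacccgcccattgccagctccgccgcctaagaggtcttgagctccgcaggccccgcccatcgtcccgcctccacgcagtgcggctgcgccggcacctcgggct

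Lamp1 holds 4 matches in this stretch, and Mcoln1 and Atg3 hold 2 each, while Ctsz, Gabarap, Map1lc3b and Ulk1 hold none in it or in the rest of their windows. The 4 called genes with a window thus lacked the motif, and Npc1, also called, had no window. The 3 others shown were picked for their matches and were not called. A set chosen by these traits cannot relate the motif to the calls. With the offset on union exon length, Ctsa, which holds CACGTG, was called higher at 0.59, as were Ctsz and Lamp2, which lack it. A role of the motif was not tested. The 12 genes with CACGTG had a median log2 fold change of 0.38, with 8 higher and 1 lower at an adjusted p under 0.05. The 20 without it had a median of 0.14, with 8 higher and 6 lower. Over all genes tested 31.5% were higher and 31.8% lower, and these shares were not computed by motif. Over all tested genes the medians were 0.01 for 1191 genes with the motif and -0.04 for 8798 without it. With the length offset the medians of the members were 0.32 and 0.22, against 0.09 and 0.04 over all tested genes.

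Beyond the 39 genes, 206 further genes of the same pathways were listed, of which 205 were matched in the table and 189 were tested. Of these, 21 were higher and 29 lower by the call, both below the 14.0% and 19.2% of all genes tested. At an adjusted p under 0.05 alone 54 were higher and 61 lower, close to the 31.5% and 31.8% of all genes tested, and their median log2 fold change was 0.03. The remaining V-ATPase subunits were mostly higher, like the 3 described above, with 11 of 15 higher and 1 lower at an adjusted p under 0.05 and a median of 0.41. Atp6v0b, part of the proton-carrying ring, was at 67.7, 69.1 and 67.7 CPM in Tespa1+/+ and at 110, 113 and 118 CPM in Tespa1-/- libraries (log2 change 0.74, SE 0.04, adjusted p 6.7e-06 by edgeR). Atp6v0a1, an isoform of the membrane subunit, went from 21.1 ± 0.916 to 12.8 ± 2.41 CPM (SD, n = 3, log2 change -0.71, adjusted p 0.00229 by edgeR). Neither was called with the length offset, at 0.52 for Atp6v0b and -0.46 for Atp6v0a1.

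The other lysosomal proteases had a median below 0, whereas that of the 6 cathepsins among the 39 genes was above 0. Of 11 tested, 3 were called lower and none higher by the call, and at an adjusted p under 0.05 alone 6 were lower and 3 higher, with a median log2 fold change of -0.18. Ctso, a further cathepsin and a cysteine protease, went from 18.2 ± 1.45 to 10.5 ± 0.789 CPM (SD, n = 3, log2 change -0.80, adjusted p 2.9e-04 by edgeR). Of 33 other hydrolases, 5 were called higher and 4 lower. For both lists, the shares called over all genes tested were 14.0% higher and 19.2% lower. Neu1, the sialidase that CTSA protects, was at 51.5, 54.9 and 56.9 CPM in Tespa1+/+ and at 97.9, 97.8 and 96.2 CPM in Tespa1-/- libraries (log2 change 0.84, SE 0.05, adjusted p 7.3e-06 by edgeR). Ids, an iduronate sulfatase, went from 17.1 ± 2.18 to 6.91 ± 1.38 CPM (SD, n = 3, log2 change -1.30, adjusted p 3.6e-04 by edgeR). Neu1, Ids and Ctso kept their calls in all 18 alternative settings.

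Of 28 other lysosomal membrane proteins, 2 were called higher and 4 lower, against 14.0% and 19.2% of all genes tested. Abca2, a lipid transporter, was at 377, 385 and 413 CPM in Tespa1+/+ and at 168, 174 and 174 CPM in Tespa1-/- libraries (log2 change -1.19, SE 0.04, adjusted p 1.4e-06 by edgeR), and its length offset value of -0.81 was still called. Laptm4b went from 16.4 ± 3.86 to 31.1 ± 4.84 CPM (SD, n = 3, log2 change 0.91, adjusted p 0.0038 by edgeR). Among 18 genes of mannose 6-phosphate and sortilin sorting, which brings hydrolases to the lysosome, 2 were called higher and 2 lower. Igf2r, a mannose 6-phosphate receptor, went from 9.13 ± 0.696 to 4.95 ± 0.358 CPM (SD, n = 3, log2 change -0.89, adjusted p 3.1e-04 by edgeR), and was not called with the length offset, at -0.46. Ap3s1, an adaptor subunit, was uneven in controls, at 121, 32.3 and 90.3 CPM in Tespa1+/+ and 209, 222 and 198.5 CPM in Tespa1-/- libraries (log2 change 1.38, SE 0.41, adjusted p 0.0213 by edgeR). Without Tespa1+/+ replicate 2 the log2 fold change of Ap3s1 was 1.0 (adjusted p 9.4e-04 by edgeR), and without Tespa1-/- replicate 2 its adjusted p was 0.051.

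Genes that control mTORC1 and TFEB at the lysosome changed in both directions. Of 29 tested, 6 were called higher and 8 lower, against 14.0% and 19.2% of all genes tested. The subunits of Ragulator, which anchors mTORC1 to the lysosome, were singled out after their values were seen. Of Lamtor1 to Lamtor5, 5 of 5 were higher at an adjusted p under 0.05, against 31.5% of all genes tested, and 4 were called. Their median log2 fold change was 0.66, which was 0.40 with the length offset, where 1 was called. Lamtor2 was at 41.9, 48.1 and 49.5 CPM in Tespa1+/+ and at 79.9, 101.5 and 73.9 CPM in Tespa1-/- libraries (log2 change 0.87, SE 0.12, adjusted p 6.8e-04 by edgeR). Fnip2, a partner of folliculin, went from 27.0 ± 0.774 to 15.0 ± 1.31 CPM (SD, n = 3, log2 change -0.85, adjusted p 8.2e-05 by edgeR). Neither Lamtor2 nor Fnip2 was called with the length offset, at 0.54 and -0.48.

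Single genes of the remaining autophagy steps moved in both directions. Of 19 other initiation and phagophore genes, 1 was called higher and 3 lower, against 14.0% and 19.2% of all genes tested. Their median log2 fold change was -0.17. Atg101, a subunit of the ULK1 complex, was at 45.8, 48.3 and 50.1 CPM in Tespa1+/+ and at 86.5, 88.2 and 83.4 CPM in Tespa1-/- libraries (log2 change 0.84, SE 0.05, adjusted p 8.3e-06 by edgeR), opposite in direction to Ulk1. The 2 genes were still opposite with the length offset, at 0.57 and -0.46, but neither was called. Bcl2, which binds Beclin 1 and blocks apoptosis, went from 185 ± 2.62 to 91.9 ± 6.92 CPM (SD, n = 3, log2 change -1.01, adjusted p 7.6e-06 by edgeR). None of 6 other LC3 conjugation genes was called, and at an adjusted p under 0.05 alone 1 was higher and 2 lower.

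Of 16 other cargo and mitophagy receptors, 1 was called higher and 2 lower, against 14.0% and 19.2% of all genes tested. Wdfy3, a large scaffold of selective autophagy with 15346 bases, went from 54.1 ± 1.77 to 19.5 ± 1.44 CPM (SD, n = 3, log2 change -1.47, adjusted p 3.5e-06 by edgeR), and its length offset value of -0.80 was still called. Sec62, an endoplasmic reticulum protein that acts as an autophagy receptor, went from 103 ± 2.87 to 173 ± 5.55 CPM (SD, n = 3, log2 change 0.75, adjusted p 5.8e-06 by edgeR). Of 14 genes of autophagosome fusion, 1 was called higher and 2 lower. Vamp8, the lysosomal SNARE of this step, went from 103 ± 2.73 to 161 ± 4.02 CPM (SD, n = 3, log2 change 0.64, adjusted p 8.5e-06 by edgeR), and Tecpr1, a tethering protein, from 19.8 ± 1.95 to 10.7 ± 0.987 CPM (SD, n = 3, log2 change -0.89, adjusted p 3.0e-04 by edgeR). With the length offset Vamp8 and Tecpr1 were at 0.46 and -0.31 and were not called.

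**Figure D5:**
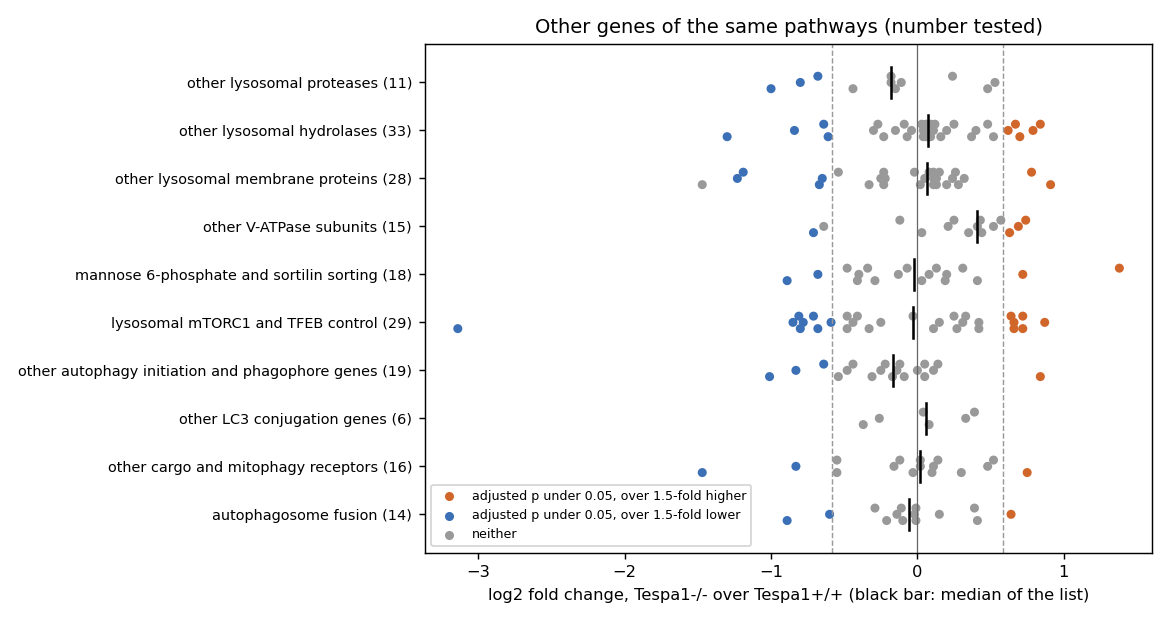
Log2 fold change, Tespa1-/- over Tespa1+/+, of the 189 tested genes of the same pathways that are not among the 39, 1 row per list with the number tested in brackets. Points are genes, coloured by call, black bars are list medians and dashed lines mark 1.5-fold. The other V-ATPase subunits centre on 0.41 and the other lysosomal proteases on -0.18, while the remaining lists have medians between -0.17 and 0.07 and hold calls on both sides, except for the other LC3 conjugation genes, which hold no call.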

How the data were processed

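LSKs of 3 Tespa1+/+ and 3 Tespa1-/- samples were profiled by poly-A, stranded, paired-end RNA sequencing. Per the labels, the submitters' processing notes name CASAVA 1.8, HISAT2, StringTie, edgeR and the build GRCm38, and the strand setting of the counting is not given in the sources used here. The authors deposited 1 table with a raw count and an FPKM value per gene and library. The deposited counts are raw whole numbers, and the deposited FPKM values hold the same counts scaled by library total and gene length. FPKM served to compare levels between genes and in alternatives.

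Groups came from the sample titles. Counts were filtered with filterByExpr, scaled by TMM, and compared by the quasi-likelihood F-test of edgeR 4.0.16 under R 4.3.3 across all 6 libraries without covariates. P-values were adjusted by Benjamini-Hochberg over 15332 genes. The cutoff of a 1.5-fold change follows the study. The length offset was a loess fit (span 0.5) of each library on union exon length. Of 55487 genes, 55227 were found in GENCODE M21, 54907 of them with identical coordinates. Library totals were 12856630 to 30576981, and counting error is part of the replicate spread given and was not separated from it. Scripts were tested on simulated counts.

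The members, the gene lists and the rule for named genes (all 39 genes, Tespa1, and in each further list the called gene with the largest rise and the largest fall at a mean count of at least 100) were chosen with earlier results of these data known. Alternatives were other filters (none, or at least 10 counts in every library), RLE factors, total counts, DESeq2 1.42.0, glmTreat, a replicate block, leaving out each library, limma-trend (3.58.1) on log2(FPKM + 1) and log2(FPKM + 0.1), 2 length offsets and 2 other thresholds. Counts of different libraries differed by more than sampling noise.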

Additional observations from a re-analysis of the deposited data

How the results depend on the processing

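Of 702 values of single members under 18 alternative settings, 618 kept both sign and significance (adjusted p against 0.05), 60 lost significance, 8 gained it and 16 turned sign. The losses include those with glmTreat, which tests against a 1.5-fold change. For members under 1.5-fold these follow from that null and do not show dependence on the processing. The number of members called higher was 2 and the number called lower 3 in most settings. It was 1 higher with limma-trend on log2(FPKM + 1), with or without its filter, 3 higher with the offset on the length implied by FPKM, 6 higher with that on union exon length and 19 higher without a fold minimum. It was 2 lower with limma-trend on log2(FPKM + 1), with or without its filter, 1 lower with either length offset and 9 lower without a fold minimum, and ranged from 3 to 4 lower when 1 library was left out. The median log2 fold change of the members, 0.17, was 0.07 with total counts, a scaling that shifted the median of all genes by -0.10, and 0.07 with limma-trend at either pseudocount and without its filter. It was 0.32 with the offset on the length implied by FPKM and 0.28 with that on union exon length, and ranged from 0.19 to 0.25 when 1 library was left out.

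Under the offsets on implied and on union exon length, the values that turned sign were Mcoln1 at 0.06 and 0.13, Tfe3 at 0.53 and 0.35, Map1lc3a at -0.04 and -0.20, Wipi2 at 0.13 and 0.26, and Atg16l1 at 0.09 and 0.05. Gaa was -0.04 with total counts and -0.03 in all 3 limma-trend fits, and without Tespa1+/+ replicate 1 Gla was -0.10 and Optn 0.07, in ranges over left-out libraries of -0.10 to 0.38 and -0.16 to 0.07. The causes were not tested. Ctsz, Map1lc3b and Tespa1 kept their calls in all 18 settings, Gabarap and Npc1 in 14 and Ulk1 in 16.

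Of the 189 further pathway genes, 21 were higher and 29 lower. These counts were 9 and 14 with glmTreat against a fold of 1.5, 10 and 14 with limma-trend on log2(FPKM + 1) and 9 and 13 without its filter. They were 54 and 61 without a fold minimum. Fewer, 14, were lower with either length offset. Over all genes, higher and lower calls numbered 2148 and 2951, against 1491 and 3516 with total counts, 1020 and 1807 with glmTreat, 1070 and 1626 with limma-trend on log2(FPKM + 1), 1253 and 2345 with the offset on union exon length and 1402 and 2435 with that on implied length.

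The replicate number as a block left 2 members higher and 3 lower and the median at 0.17. Deviations of same-numbered libraries correlated at 0.0459, 0.0107 and 0.0595. The sample titles give no pairing beyond the replicate number, so it was not used in the main fit. These values cannot exclude that same-numbered libraries shared a batch. The widest errors were those of Mitf (SE 0.38) and Gla (SE 0.30), whose libraries spread most, and counting error weighs most on members at a few CPM such as Mitf, Optn and Map1lc3a. Of the further pathway genes named, Fnip2, Tecpr1 and Atp6v0a1 lost their calls with both length offsets and with limma-trend on log2(FPKM + 1). Vamp8 lost its call with both length offsets, every limma-trend fit, glmTreat and total counts, and kept it in 11 of 18 settings. Atp6v0b, Igf2r, Lamtor2 and Atg101 lost theirs with the offset on union exon length but not with the other.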

Other observations

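Ratios of FPKM between paralogues within a library do not depend on the scaling of that library, and 4 were formed after the values had been seen. Gabarap over Gabarapl1 ranged from 0.720 to 0.795 in the controls and from 1.29 to 1.46 in Tespa1-/- libraries, with means of 0.754 ± 0.0381 and 1.399 ± 0.0925 (SD, n = 3). The ratio thus crossed 1 between the groups, for a pair of genes with similar lengths. Gabarap over Map1lc3b was 2.82 ± 0.713 against 8.35 ± 0.214, and Ctsz over Ctss was 8.61 ± 0.448 against 11.9 ± 0.785 (SD, n = 3). Gabarap and Map1lc3b differ in length, with 1844 and 7517 bases, and their ratio was not corrected for the length trend. Ulk1 over Ulk2 went the other way, from 1.53 ± 0.0611 to 1.29 ± 0.148. In each of the 4 ratios the groups did not overlap, which is a description of pairs chosen for their difference. An exact permutation test gave p 0.1 for each, the smallest value it can give with 3 libraries per group, so it cannot decide the question.

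Of the 39 genes, 14 share exon sequence with another annotated gene and 25 do not. Since the strand setting of the counting is not given, it cannot be told apart here which reads in a shared stretch came from an opposite-strand partner. Of the called genes, Ctsz shares 0.69% of its exon length with Nelfcd, Map1lc3b 0.77% with Zcchc14 and Npc1 4.52% with Rmc1, and Gabarap and Ulk1 share none.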
